A study of Homo sapiens with 4 samples.

Results

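Phagophore nucleation, the step in which a new autophagosome membrane appears on the endoplasmic reticulum (ER), and the lipid supply that lets that membrane grow were followed through 6 genes: BECN1, UVRAG, WIPI2, ATG2A, ATG9A and VMP1. They were picked by symbol, and all 6 are among the 8727 genes of the authors' deposited table of the comparison. Only genes with an adjusted p under 0.05 are in that table, and these genes were picked with its contents known, so their presence there is not a finding. The study sequenced polyadenylated RNA of HepG2 cells, an established human liver tumour line whose labels name a hepatoblastoma source. There are 2 libraries of cells given the solvent DMSO and 2 of cells given isoginkgetin at 20 µM for 24 h. Isoginkgetin, a biflavonoid of ginkgo leaves, is known for blocking the splicing of pre-mRNA, and the series' title names autophagic cell death.

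Macroautophagy wraps cytoplasm in a growing double membrane, the phagophore. Beclin 1, in a complex with the lipid kinase VPS34, makes the lipid PtdIns3P on the ER, and WIPI proteins bind that lipid and call in the machinery that conjugates LC3. ATG9 vesicles seed the membrane, ATG2 proteins carry lipids into it from the ER, and VMP1 and TMEM41B move lipids between the leaflets of the ER membrane at these contact sites.

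Of the 6 genes, 5 were higher and 1 was lower after isoginkgetin in the authors' deposited table. ATG2A rose most, by 1.49-fold, followed by UVRAG (1.38-fold), BECN1 (1.29-fold), ATG9A (1.29-fold) and WIPI2 (1.16-fold) in the authors' deposited table. VMP1 fell to 0.889 of its level in DMSO by the authors' deposited table. Over all 20024 genes the authors tested, 22.4% passed as higher and 21.1% as lower, 43.6% in all. Of the 6, 0 reached 1.5-fold in either direction. Of all genes tested, 12.2% passed as higher and 14.0% as lower with at least that change. ATG2A missed 1.5-fold narrowly, and the interval of its fold computed from the authors' SE, 1.34 to 1.67, includes it. None of the 6 reached 2-fold, which 6.26% of all genes tested did as higher and 7.43% as lower. At an adjusted p under 0.001, 3 of the 6 were higher and 0 lower, beside 14.5% and 14.7% of all genes tested, and with Bonferroni 1 and 0, beside 10.7% and 11.0%. The median log2 fold change of the 6 was 0.36, beside 0.21 for all genes of the authors' deposited table, where 51.5% were higher. Among the 3924 genes of the table with a mean normalized count in the range of these 6, the median was 0.25 and 53.6% were higher. Both medians mix higher and lower genes of a table without genes near 0, so neither is a typical change. The higher genes in that range had a median of 0.51. Of the 5 higher genes here, only ATG2A, at 0.58, lay above it.

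Directions rest on reading a positive log2 fold change as isoginkgetin over DMSO, the usual order, which the headers of the authors' deposited table do not name. With the opposite order each direction would turn. The table gives 1 mean normalized count per gene over all 4 libraries, so no value per library, no spread within a group and no total count per library can be given here. No label says that the replicates were separate cultures, and if they were not, the p-values speak only of technical spread. In RNA from whole cultures, a smaller share of cells with a gene's RNA and less of it per cell cannot be told apart. Normalized counts do not show the number of cells. Of 10 hepatocyte markers 9 are in the authors' deposited table, all lower. Of all genes tested, 43.6% are in it and 21.1% passed as lower. Their log2 fold changes ran from −1.17 to −0.21 with a median of −0.76, which is larger in size than the change of any of the 6 genes. Their mean normalized counts in the authors' deposited table run from 442 for TTR to 157429 for APOB. The authors' deposited table also holds 1 of 6 fibroblast markers, PDGFRB, which was lower as well at a mean normalized count of 60.2. The part of such changes in the results below was not tested.

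**Figure D1:**
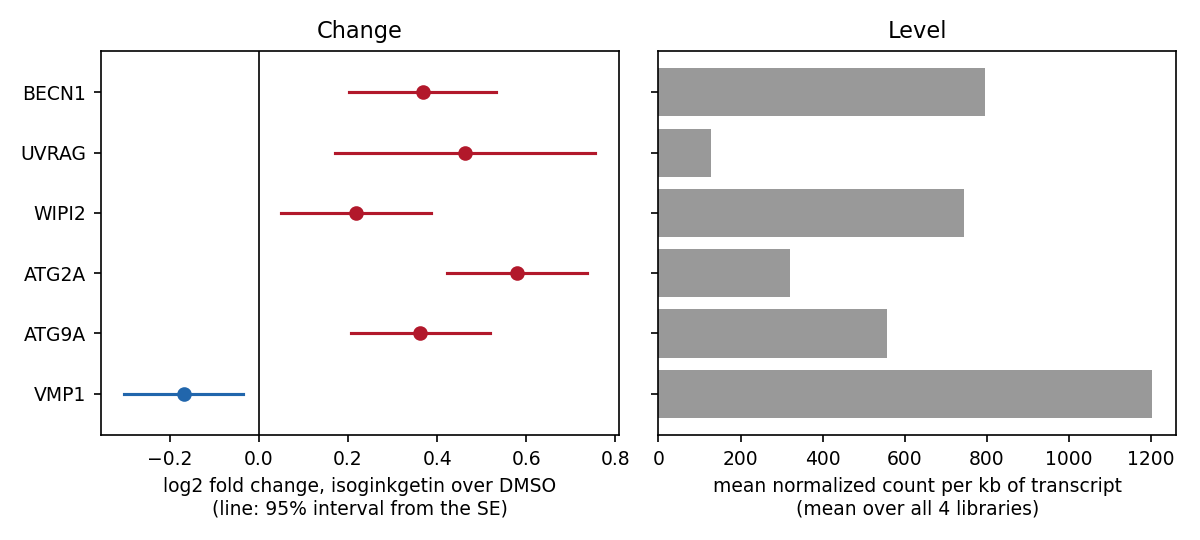
Left, the log2 fold change of each gene (isoginkgetin over DMSO) with its 95% interval computed from the authors' SE. Right, the authors' mean normalized count over all 4 libraries divided by the length of 1 coding transcript in kb. The intervals of 5 genes lie above 0 and that of VMP1, the gene with the highest level, lies below 0.

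BECN1 encodes Beclin 1, the scaffold of the VPS34 kinase complexes. By the authors' deposited table its mean normalized count over the 4 libraries was 1681, and its log2 fold change was 0.37 with an SE of 0.08 and an adjusted p of 4.19e-05. The 95% interval computed from that SE runs from 0.20 to 0.53. With 2 libraries in each group, that mean and fold imply about 1468 normalized counts in DMSO and 1894 in isoginkgetin for BECN1. The BECN1 gene as GENCODE annotates it overlaps PSME3, a proteasome activator gene on the opposite strand. RefSeq has PSME3 beside BECN1 without overlap. The libraries do not keep strand, so reads in a shared stretch could not be told apart by strand. Whether exons are shared was not looked at, and the annotation the authors counted on is not known. The authors' deposited table puts PSME3 higher too, at 0.31 (SE 0.06). CNTD1 overlaps the other end of BECN1 and has no value here.

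UVRAG defines the VPS34 complex that acts on endosomes and late in autophagy, and it binds Beclin 1 directly. It had the lowest level of the 6, with a mean normalized count of 525 in the authors' deposited table, and the widest error. The authors' deposited table gives UVRAG a log2 fold change of 0.46 with an SE of 0.15 and an adjusted p of 0.00393, and the 95% interval runs from 0.17 to 0.75. For UVRAG the implied means are 442 normalized counts in DMSO and 609 in isoginkgetin. The point estimate of UVRAG is thus the second highest of the set, but its interval covers those of BECN1 and ATG9A.

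WIPI2 reads PtdIns3P on the phagophore and recruits ATG16L1. The authors' deposited table lists WIPI2 at a mean normalized count of 1572 and a log2 fold change of 0.22, with an SE of 0.09 and an adjusted p of 0.0266. The 95% interval, 0.05 to 0.39, lies close to 0, and the implied means of WIPI2 are 1453 normalized counts in DMSO and 1690 in isoginkgetin. Of the genes with a like mean normalized count in the table, only 2.12% had a smaller change in either direction than WIPI2. Genes that did not pass are not among them. The log2 fold change of WIPI2 lay at the median of the table, from which it differed by 0.0049. That median mixes higher and lower genes of a table without genes near 0, so it is not a typical change.

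ATG2A encodes a rod-shaped protein that bridges the ER and the phagophore and lets phospholipids pass. It showed the largest change and the smallest p of the set, in the authors' deposited table: a log2 fold change of 0.58 with an SE of 0.08 and an adjusted p of 2.58e-12, at a mean normalized count of 2037. The 95% interval runs from 0.42 to 0.74, and the implied means of ATG2A are 1633 normalized counts in DMSO and 2440 in isoginkgetin. Of the genes at a like level in the table, 78.2% had a lower log2 fold change. Its paralog ATG2B has no value here.

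ATG9A, the membrane protein of the vesicles that seed the phagophore, is a scramblase that spreads incoming lipids over both leaflets. For ATG9A the authors' deposited table gives a mean normalized count of 2241 and a log2 fold change of 0.36, with an SE of 0.08 and an adjusted p of 1.86e-05. The 95% interval runs from 0.21 to 0.52. The implied means of ATG9A are 1961 normalized counts in DMSO and 2521 in isoginkgetin. Its paralog ATG9B has no value here.

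VMP1, an ER scramblase needed for the phagophore to detach and mature, was the exception. At the highest mean normalized count of the set, 3258, the authors' deposited table gives it a log2 fold change of −0.17 with an SE of 0.07 and an adjusted p of 0.0301. The 95% interval runs from −0.30 to −0.04, and the implied means of VMP1 are 3449 normalized counts in DMSO and 3067 in isoginkgetin. Only 0.688% of the genes in the table changed less than VMP1, but the table leaves out the genes that did not pass. PTRH2, a mitochondrial peptidyl-tRNA hydrolase gene on the opposite strand, overlaps VMP1 in GENCODE but lies beside it without overlap in RefSeq. The authors' deposited table has PTRH2 going the other way, at 0.63 (SE 0.12). The microRNA gene MIR21 lies within VMP1 outside the exons of the coding transcript used here, and MIR21 has no value of its own.

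**Figure D2:**
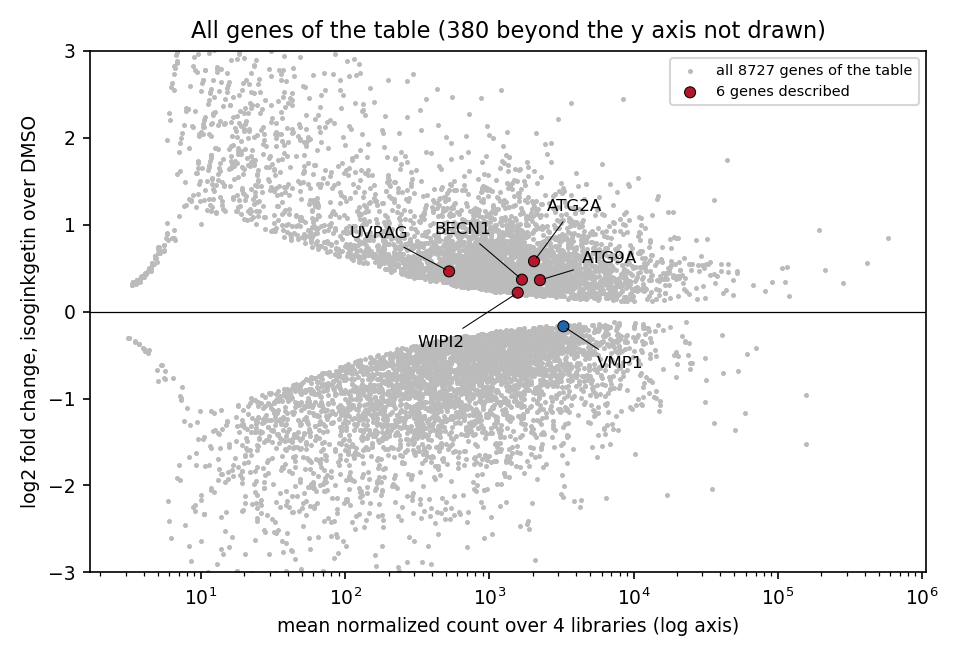
Log2 fold change (isoginkgetin over DMSO) against mean normalized count over 4 libraries on a log axis, for the genes of the authors' deposited table in grey, with 380 genes beyond 3 on either side not drawn, and the 6 genes in colour. Genes that did not pass are not drawn, whatever their change. No gene of the table lies in the empty band around 0, and WIPI2 and VMP1 lie at its edge.

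Set in order, the log2 fold changes ran from ATG2A through UVRAG, BECN1, ATG9A and WIPI2 down to VMP1. For 4 of the 5 pairs of neighbours in that order the 95% interval of the difference included 0. The exception was WIPI2 and VMP1, whose difference was 0.39 (0.17 to 0.60). These intervals combine the authors' SEs as if the genes were independent, although all come from the same libraries, and are not adjusted for the 15 pairs. Of the 10 pairs among the 5 higher genes, 1 had an interval above 0, ATG2A less WIPI2 at 0.36 (0.13 to 0.59). The difference between ATG2A and BECN1 was 0.21 (−0.02 to 0.44) and that between BECN1 and ATG9A 0.01 (−0.22 to 0.23). All 5 differences from VMP1, that of WIPI2 included, had intervals above 0. This was fixed in advance by the cut of the table. Genes that passed as higher and as lower have intervals on opposite sides of 0, so their difference must exclude 0.

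Per kb of a coding transcript annotated by GENCODE, the order of levels was different from that of changes. VMP1 stood first with 1201 mean normalized counts per kb, ahead of BECN1 (796), WIPI2 (744), ATG9A (557), ATG2A (320) and UVRAG (127), computed from the authors' deposited table. No spread over libraries can be set beside these levels, so whether neighbours such as BECN1 and WIPI2 differ is not known. The library does not show which isoform was made, and another transcript length would move these values.

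Promoter sequence was looked at because 5 of the genes rose and VMP1 fell. The RefSeq windows of build GRCh38.p14 hold 250 bases before and 50 after a gene start, and 5 of the 6 genes have one, UVRAG being the gene without. The windows of ATG2A (chr11:64917160-64917459, minus strand), ATG9A (chr2:219229587-219229886, minus strand) and WIPI2 (chr7:5189983-5190282, plus strand) are shown as those with a GC box, and VMP1 (chr17:59707404-59707703, plus strand) as the gene that fell. Capitals mark the GC box GGGCGG on either strand, and sequences read in the direction of the gene.
ATG2A: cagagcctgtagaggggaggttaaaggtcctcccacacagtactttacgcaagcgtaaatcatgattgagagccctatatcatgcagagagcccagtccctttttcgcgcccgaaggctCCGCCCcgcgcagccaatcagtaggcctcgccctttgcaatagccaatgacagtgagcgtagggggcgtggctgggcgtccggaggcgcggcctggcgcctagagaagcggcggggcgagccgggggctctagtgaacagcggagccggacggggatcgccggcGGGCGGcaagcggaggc
ATG9A: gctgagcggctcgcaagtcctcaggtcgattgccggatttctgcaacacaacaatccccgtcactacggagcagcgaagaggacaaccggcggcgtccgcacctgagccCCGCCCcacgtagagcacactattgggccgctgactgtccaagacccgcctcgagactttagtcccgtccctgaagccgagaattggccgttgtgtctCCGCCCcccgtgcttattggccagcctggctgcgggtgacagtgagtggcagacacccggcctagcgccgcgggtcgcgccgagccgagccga
WIPI2: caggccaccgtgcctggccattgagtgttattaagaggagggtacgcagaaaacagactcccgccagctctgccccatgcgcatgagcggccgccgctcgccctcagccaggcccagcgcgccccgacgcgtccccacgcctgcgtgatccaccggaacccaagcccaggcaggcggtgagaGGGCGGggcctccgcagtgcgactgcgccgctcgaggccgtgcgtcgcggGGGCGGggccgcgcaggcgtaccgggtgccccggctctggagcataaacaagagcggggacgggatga
VMP1: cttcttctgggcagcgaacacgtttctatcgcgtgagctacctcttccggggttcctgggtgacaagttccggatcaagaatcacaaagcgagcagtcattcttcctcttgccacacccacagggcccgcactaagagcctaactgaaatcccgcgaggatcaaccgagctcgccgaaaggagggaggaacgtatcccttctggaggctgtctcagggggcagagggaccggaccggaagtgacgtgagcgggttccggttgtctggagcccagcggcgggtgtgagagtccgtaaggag
The GC box, a site known to be bound by SP1, occurs at 2 positions in each of the windows of ATG2A, ATG9A and WIPI2 and at 0 in that of VMP1. In ATG2A it begins at −131 and at 34 from the gene start, in ATG9A at −141 and −43, and in WIPI2 at −68 and −18. A share of 45.0% of all 35116 RefSeq windows hold it too, so its presence in 3 of the 5 genes is not a result about them. The window of BECN1 holds none, but the start site it is built on lies 9471 bases inside the gene as GENCODE annotates it, and the other window of WIPI2 holds none either. The E-box CACGTG, the core of the element that TFEB binds in lysosome and autophagy genes, was in 0 of the 6 windows and in 7.26% of all windows, and its longer form TCACGTGA in 0 and in 0.980%. Likewise the 6 windows held 0 matches to TGATGNAA (the ATF4 and C/EBP composite, 3.62% of all windows), TGACGTCA (the cAMP response element, 1.85%), GTAAACA (FOXO, 3.42%) and TGACNNNGC (the antioxidant response element, 13.3%). All motifs were searched on both strands, and TCACGTGA contains CACGTG. A missing match says only that these letters are not in these windows.

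The 6 genes differ in structure. With the genes of the table divided into 5 groups of about equal size by transcript GC content, the share of higher genes fell from 61.0% in the group with the lowest GC content to 36.2% in that with the highest. Divided by exon number, the share fell from 59.1% to 37.1% from the fewest to the most exons. Divided by gene length, introns included, it fell from 60.2% among the shortest genes to 35.6% among the longest. Ties make the groups by exon number uneven, at 1303 to 1888 genes. These shares cover the 7541 genes of the authors' deposited table (86.4%) that match a GENCODE coding gene by current or older symbol. ATG2A was higher with a transcript of 64.0% GC and 41 exons, more exons than in 97.9% of these genes. ATG9A, with 59.8% GC and 16 exons, is also in the group of highest GC content, yet at 10.3 kb it is in that of the shortest genes. UVRAG was higher at a gene length of 328 kb, longer than 97.5% of these genes. VMP1, at 42.3% GC and 12 exons, shares its exon number with BECN1 and WIPI2, but at 135 kb it is in the group of the longest genes with UVRAG. The part of GC content, exon number or gene length in any of these changes was not tested.

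**Figure D3:**
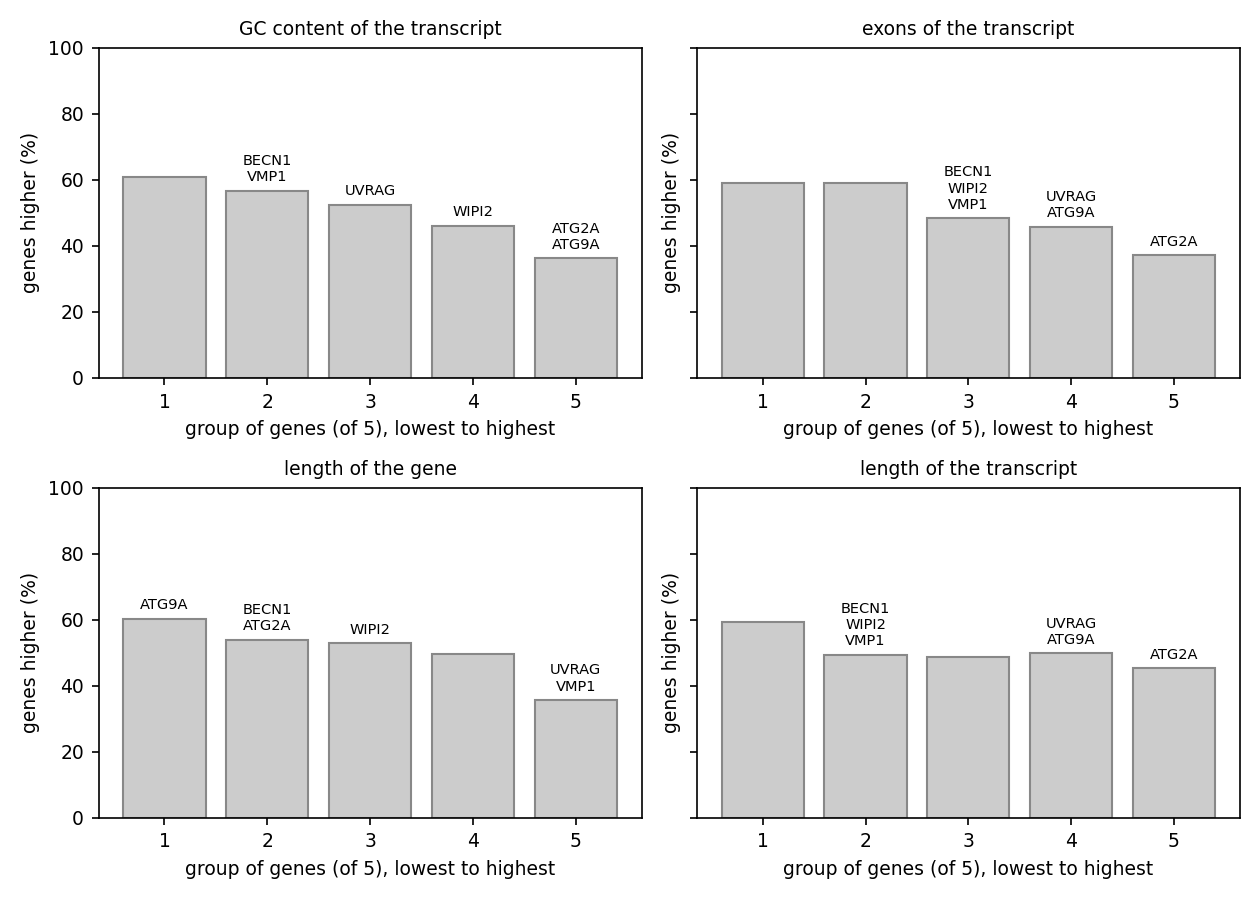
Share of higher genes (%) in 5 groups by GC content, exon number, gene length and transcript length, from lowest to highest, over the 7541 genes matched to GENCODE. Groups are of about equal size except those by exon number, which hold 1303 to 1888 genes because of ties. The names above a bar are the genes described here that fall in that group, and ATG2A lies in the highest group for GC content and exon number, where 36.2% and 37.1% of genes were higher.

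Genes that work with these 6 were taken from 7 lists of 70 genes, of which 47 (67.1%) are in the authors' deposited table and thus passed, beside 43.6% of all genes tested. The lists were chosen with earlier results of these data known. The shares that passed, here and for each list below, are therefore not findings about the pathway. Among the 47, 29 were higher and 18 lower, so that 61.7% were higher, beside 51.5% of the whole table, and their median log2 fold change was 0.34. Of 9 listed partners of the VPS34 complex, 2 have a value and both were higher, as BECN1 was. The authors' deposited table puts NRBF2, a subunit of the autophagy form of the complex, at 0.75 (SE 0.11) and SH3GLB1, a membrane-curving protein that binds UVRAG, at 0.53 (SE 0.07) on the log2 scale. The other 7, the kinase PIK3C3, its subunits PIK3R4 and ATG14, the regulators AMBRA1, RUBCN and RUBCNL, and BECN2, have no value here, and whether they changed is not known.

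All 11 listed proteins that bind or modify Beclin 1 are in the authors' deposited table, beside 43.6% of all genes tested. Of the 11, 6 were higher and 5 lower (median 0.34), beside 51.5% higher in the whole table. Those with the largest changes were lower. The authors' deposited table places lowest the deubiquitinase USP13, which stabilises Beclin 1, at −1.29 (SE 0.11), and the kinase DAPK1, which frees Beclin 1 from BCL2 proteins, at −1.002 (SE 0.11). Next in the authors' deposited table came the ubiquitin ligase NEDD4 at −0.93 (SE 0.13) and BCL2L1, whose product BCL-XL holds Beclin 1 inactive, at −0.77 (SE 0.06). MCL1, which also binds Beclin 1, has a value of 0.55 (SE 0.06) there, and by the authors' deposited table it thus moved opposite to BCL2L1.

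UVRAG binds the HOPS tethering complex, whose listed subunits and RAB7A, the GTPase it serves, were divided. Of 7 listed genes 6 are in the authors' deposited table, beside 43.6% of all genes tested. Of the 6, 3 were higher and 3 lower (median 0.12), beside 51.5% higher in the whole table. Among core subunits, the authors' deposited table puts VPS18 at 1.02 (SE 0.12) and VPS11 at 0.56 (SE 0.10), but VPS16 at −0.50 (SE 0.13). VPS41, another subunit, is listed in the authors' deposited table at −0.57 (SE 0.13), and RAB7A at 0.47 (SE 0.06). VPS33A has no value here.

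The list of proteins that bind PtdIns3P, enzymes that remove it and ATG16L1 has 7 genes. Of these, 5 have a value in the authors' deposited table, beside 43.6% of all genes tested. All 5 were higher (median 0.57), beside 51.5% of the whole table. WDR45 and WDR45B share the propeller fold of WIPI2, and the authors' deposited table gives them 0.57 (SE 0.17) and 0.46 (SE 0.07), with the 0.22 of WIPI2 below both. ZFYVE1, a marker of the ER platform where phagophores form, reached 0.47 (SE 0.19) by the authors' deposited table, and the phosphatase MTMR3 reached 0.73 (SE 0.27). For ATG16L1, the partner that WIPI2 recruits, the authors' deposited table has 0.81 (SE 0.10). WIPI1 and MTMR14 have no value here.

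Of 17 genes listed for the traffic of ATG9A vesicles, 11 are in the authors' deposited table, beside 43.6% of all genes tested. Of the 11, 9 were higher and 2 lower (median 0.46), beside 51.5% higher in the whole table. Highest in the authors' deposited table were ARFIP2, a protein of ATG9A vesicles, at 0.92 (SE 0.09), and RAB1A, a GTPase of ER-to-Golgi traffic, at 0.87 (SE 0.06). SNX18, a membrane-remodelling sorting nexin, followed in the authors' deposited table at 0.87 (SE 0.14). AP-4 is the adaptor that carries ATG9A out of the Golgi, and the authors' deposited table gives 0.59 (SE 0.22) for its subunit AP4B1. RUSC2, which links AP-4 vesicles to their transport outward, stands in the authors' deposited table at 0.86 (SE 0.13), and its paralog RUSC1 at −0.57 (SE 0.13). ATG9B, AP4E1, AP4M1, AP4S1, TBC1D14 and RAB1B have no value here.

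Of the 5 other lipid transfer and scramblase genes listed, 4 have a value, beside 43.6% of all genes tested. Of the 4, 1 was higher and 3 were lower (median −0.65), beside 51.5% higher in the whole table. TMEM41B, the ER scramblase that works beside VMP1, was higher where VMP1 was lower, and the authors' deposited table gives it 0.29 (SE 0.09). VPS13A, VPS13C and VPS13D are bridge-like lipid transfer proteins related to ATG2. They went the other way from ATG2A, and the authors' deposited table has them at −0.69 (SE 0.10), −0.78 (SE 0.11) and −0.61 (SE 0.10). Their transcripts have 72, 83 and 70 exons and their genes span 244, 208 and 282 kb, beside 41 exons and 22.7 kb for ATG2A. ATG2A and these VPS13 genes are all in the group with the most exons, and the VPS13 genes are also in that of the longest genes. Their transcripts have 37.0%, 38.9% and 46.9% GC, beside 64.0% for ATG2A. VPS13A and VPS13C are thus in the group of lowest GC content, where 61.0% of genes were higher. ATG2A is in that of the highest, where 36.2% were. The part of these features in the changes was not tested.

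Of 14 enzymes listed for phospholipid and acyl-CoA synthesis, 8 are in the authors' deposited table, beside 43.6% of all genes tested. Of the 8, 3 were higher and 5 lower (median −0.27), beside 51.5% higher in the whole table. Lowest in the authors' deposited table were ACSL4, which activates polyunsaturated fatty acids, at −0.75 (SE 0.06), and PCYT2, an enzyme of phosphatidylethanolamine synthesis, at −0.60 (SE 0.08). CHPT1, which completes phosphatidylcholine, is listed in the authors' deposited table at −0.31 (SE 0.09). On the higher side, the authors' deposited table has the phosphatidate phosphatase LPIN1 at 0.30 (SE 0.11) and the decarboxylase PISD at 0.29 (SE 0.09). CDIPT, PTDSS1, PCYT1A, CEPT1, ETNK1 and SELENOI have no value here.

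**Figure D4:**
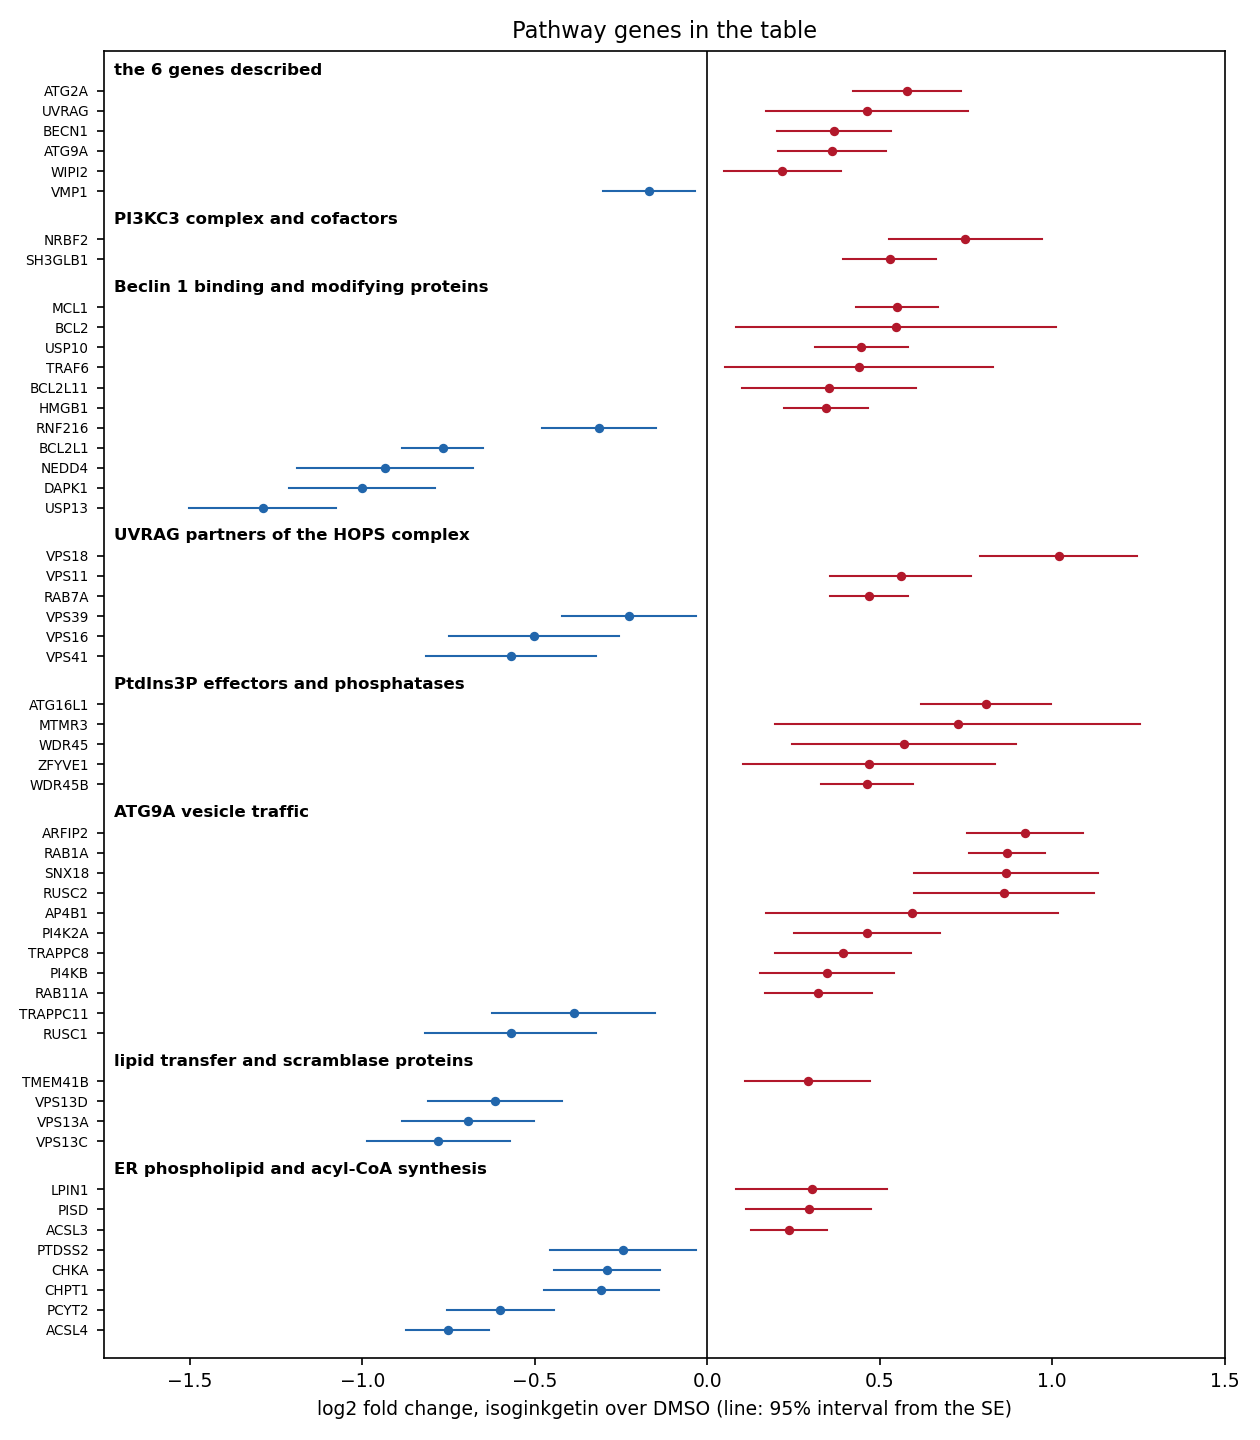
Log2 fold change (isoginkgetin over DMSO) with its 95% interval from the authors' SE for the 6 genes and for the 47 genes of the 7 lists that are in the table, red for higher and blue for lower. The 5 genes with a value among PtdIns3P effectors and phosphatases are all to the right of 0, and 3 of 4 lipid transfer and scramblase genes are to the left. Of the whole table, 51.5% of genes were higher.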

How the data were processed

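RNA of 4 HepG2 libraries was sequenced, 2 of DMSO and 2 of isoginkgetin, grouped by sample title. Per the submitters' processing notes, STAR 2.7.0 and featureCounts were used, with hg19 and mm10 named and no role given. Per the labels' protocols, the libraries were polyA-selected and non-directional. The authors deposited 1 table with columns named as in DESeq2 output, per the file headers. Its mean normalized count, a signal averaged over the libraries, is the authors' own. So are the log2 fold change with its SE and the p-value and adjusted p-value that the authors deposited. The number of genes tested, 20024, was recovered from adjusted p times rank over p and tested on simulated data. Depth per library is not given in the sources used here. Intervals are the fold change ± 1.96 SE. Implied group means assume equal weight of both groups. The tests planned on values per library could not be run, and no test was added. Genes and lists were chosen with earlier results of these data known. The rule for naming took all 6 genes, listed genes up to 5 per list by size of change where more than 5 have a value, the paralogs, and the nearest or overlapping genes. RUSC1 and the marker genes were named after their values were seen. A list of leukocyte markers is not reported here. Transcript features came from GENCODE 29 (GRCh38), 1 principal coding transcript per gene, and promoters and gene order from RefSeq GRCh38.p14. Computations used Python 3.11.15, pandas 2.3.3 and scipy 1.17.1.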

Additional observations from a re-analysis of the deposited data

How the results depend on the processing

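No paired analysis was possible because the deposited table has no values per library, and for the same reason no library could be left out. Of the 5 higher and 1 lower genes, 3 and 0 were left at an adjusted p under 0.001 (ATG2A, ATG9A and BECN1), 1 and 0 with Bonferroni (ATG2A), and 0 and 0 at 1.5-fold and at 2-fold. UVRAG (adjusted p 0.00393), WIPI2 (0.0266) and VMP1 (0.0301) were lost at an adjusted p under 0.001. Of the 29 higher and 18 lower genes of the wider lists, 18 and 15 were left at an adjusted p under 0.001, 14 and 9 with Bonferroni, 9 and 9 at 1.5-fold and 1 and 2 at 2-fold. Centring on the median of the table turned no direction but moved the log2 fold changes to 0.37 for ATG2A, 0.25 for UVRAG, 0.15 for BECN1, 0.15 for ATG9A, 0.0049 for WIPI2 and −0.38 for VMP1. With the same SEs, the 95% intervals of 4 of the 5 higher genes (all but ATG2A) then included 0. That median lies in a table without genes near 0, so it is no measure of a shift of all genes. The SE times the normal deviate of the p-value gave 0.59 for ATG2A and 0.48 for UVRAG, and the other 4 values were the same to 2 decimals or 0.01 apart. The deposited p-values are thus not exactly those of the deposited fold change over its SE, and the sources used here do not say why. Folds, implied means and intervals given here rest on the fold changes and SEs as deposited. So does the count of 0 higher genes at 1.5-fold. ATG2A just misses that fold as deposited and just reaches it with the value from its p-value. Limiting the motif search to the bases before the gene start left 42.6% of all windows with a GC box. The depth per library is unknown. The SE of UVRAG was 0.15 at a mean normalized count of 525, and that of VMP1 0.07 at 3258.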

Other observations

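The genes next to the 6 on their chromosomes, by RefSeq order, did not share 1 direction in the authors' deposited table. PPP2R5B, a regulatory subunit of protein phosphatase 2A that lies beside ATG2A, was higher as ATG2A was, and the authors' deposited table gives it a log2 fold change of 0.88 with an SE of 0.18. SLC29A4, a monoamine transporter gene beside WIPI2, was lower in the authors' deposited table at −0.61 with an SE of 0.12. PSME3 beside BECN1, given above, was higher as BECN1 was, and PTRH2 beside VMP1 was higher where VMP1 was lower. COA3, a cytochrome c oxidase assembly factor, is the nearest gene on the other side of BECN1 once CNTD1, which overlaps BECN1, is left out. COA3 was lower in the authors' deposited table at −0.43 with an SE of 0.12. ABCB6 and ANKZF1, on either side of ATG9A, have no value here.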
